A study of Mus musculus with 8 samples.

Results

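Polycomb repressive complex 2 (PRC2) was followed through 9 genes that encode its core and accessory subunits: *Ezh1*, *Ezh2*, *Eed*, *Suz12*, *Jarid2*, *Aebp2*, *Mtf2*, *Phf1* and *Phf19*. They were taken by symbol, and each was found once among the 26263 genes counted. All 9 passed the filter on low counts, which left 16399 genes to test. RNA-seq had been performed on male hybrid mouse embryonic stem cells (ESCs) and on neural precursor cells (NPCs) obtained from them after 12 days of *in vitro* corticogenesis, a culture protocol that steers ESCs towards cortical precursors. The B/J cells (line BJE2) came from a cross labelled C57BL/6 x JF1, and the J/B cells (line JBE6) from the reciprocal cross, JF1 x C57BL/6. ESCs of both lines were kept in medium with LIF, BMP4 and a GSK3-β inhibitor, and the NPC medium contained B27 without vitamin A and a dorsomorphin homolog. Each of the 4 groups (ESC B/J, ESC J/B, NPC B/J, NPC J/B) had 2 replicate libraries. Each cross is therefore a single line, so cross and line cannot be told apart. The labels do not say whether replicates were separate cultures, and p-values measure the spread between these libraries only.

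PRC2 places methyl groups on lysine 27 of histone H3, the mark H3K27me3, which is associated with silent developmental genes in ESCs. EZH2 or its paralog EZH1 carries the catalytic SET domain, EED and SUZ12 hold the core together and are needed for its activity, and the accessory proteins bind in alternative sets. MTF2, PHF1 and PHF19 are the Polycomb-like proteins of one form, and JARID2 and AEBP2 are partners of the other. EZH2 is generally the enzyme of dividing cells, whereas EZH1 is found more in cells that have left the cycle.

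The files hold reads per gene summed over both alleles, with between 22537138 and 32706015 reads on genes per library. Levels are given as CPM, the reads of a gene scaled to a common library size, after the TMM method (TMM CPM), which corrects for differences in RNA composition. TMM factors were 0.820 to 0.885 in ESCs and 1.14 to 1.21 in NPCs, so levels on plain library totals shift between the stages. The pluripotency factor *Pou5f1* went from 1942 ± 420 TMM CPM in ESCs to 26.4 ± 15.8 in NPCs (SD, n = 4), and the neural precursor gene *Nes* from 33.9 ± 14.4 to 151 ± 75.3. *Pax6*, a cortical precursor factor, had 8.23 ± 7.02 and 30.1 ± 17.2 TMM CPM, and its difference did not pass the test (adjusted p = 0.0606, edgeR). Summed levels of 10 trophoblast markers were 62.6 to 201 TMM CPM in ESCs and 1238 to 3481 in NPCs. Of the 10, 9 were called higher, where 37.5% of all genes tested were called higher in NPCs. The largest NPC means among the 10 were those of *Krt8* (815 TMM CPM) and *Krt18* (531). Of 10 neural precursor markers 8 were called higher and *Sox2* lower, with sums of 812 to 1216 in ESCs and 759 to 1845 in NPCs, and of 10 neuronal markers 9 were called higher and *Stmn2* lower, with sums of 326 to 467 and 346 to 1818. Of 10 fibroblast markers 8 were called higher, 1 did not pass and *Fn1* fell by 0.39. Their sums overlapped, with 1664 to 2200 TMM CPM in ESCs and 2104 to 3485 in NPCs. Without *Fn1* the sum was 8.20 to 75.4 TMM CPM in ESCs and 772 to 1888 in NPCs. Endoderm markers summed to 6.25 to 18.5 and 68.0 to 131, with 6 of the 8 tested called higher. Of these markers, 3 of trophoblast (*Tpbpa* and *Pappa2* had 0 reads in ESCs), 2 of neural precursors, 1 of neurons, 4 of fibroblasts and 2 of endoderm reached the low-count filter in the NPC libraries alone and, once tested, could only be higher there. The part of other cell types in the PRC2 values was not tested. Alternative library kits and sequencers were used without a record of which library had which, so these cannot be told apart from the groups.

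Promoter sequences are shown for the genes of both catalytic subunits, and for the other genes among the 9 in which an E2F-type motif was found. E2F factors drive cell cycle genes, and the letters searched were TTTCCCGC, TTTGGCGC, TTTCGCGC and TTTGCCGC on both strands. Each window covers 250 bases before to 50 bases after a RefSeq start site on the GRCm38.p6 build, written 5′ to 3′ on the strand of the gene, and capitals mark the match. The windows are *Ezh2* at chr6:47594981-47595280 (minus strand), *Ezh1* at chr11:101226414-101226713 (minus strand), *Suz12* at chr11:79992856-79993155 (plus strand) and *Phf19* at chr2:34913927-34914226 (minus strand).
Ezh2: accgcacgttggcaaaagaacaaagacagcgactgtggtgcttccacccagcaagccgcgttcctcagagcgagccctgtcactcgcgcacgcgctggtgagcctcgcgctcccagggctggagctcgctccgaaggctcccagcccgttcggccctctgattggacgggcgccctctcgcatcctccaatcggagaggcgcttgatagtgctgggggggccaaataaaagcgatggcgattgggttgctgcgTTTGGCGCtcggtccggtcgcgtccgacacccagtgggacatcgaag
Ezh1: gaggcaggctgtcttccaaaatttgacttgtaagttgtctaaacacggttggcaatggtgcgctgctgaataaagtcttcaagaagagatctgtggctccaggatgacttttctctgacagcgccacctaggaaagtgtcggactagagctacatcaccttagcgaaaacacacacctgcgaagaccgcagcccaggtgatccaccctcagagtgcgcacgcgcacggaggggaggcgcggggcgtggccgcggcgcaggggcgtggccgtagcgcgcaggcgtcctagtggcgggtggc
Suz12: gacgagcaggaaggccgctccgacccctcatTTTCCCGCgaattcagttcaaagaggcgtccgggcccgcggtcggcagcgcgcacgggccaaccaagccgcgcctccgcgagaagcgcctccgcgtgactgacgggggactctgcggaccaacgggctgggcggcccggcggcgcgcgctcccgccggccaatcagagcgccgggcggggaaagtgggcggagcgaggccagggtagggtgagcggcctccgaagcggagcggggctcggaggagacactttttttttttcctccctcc
Phf19: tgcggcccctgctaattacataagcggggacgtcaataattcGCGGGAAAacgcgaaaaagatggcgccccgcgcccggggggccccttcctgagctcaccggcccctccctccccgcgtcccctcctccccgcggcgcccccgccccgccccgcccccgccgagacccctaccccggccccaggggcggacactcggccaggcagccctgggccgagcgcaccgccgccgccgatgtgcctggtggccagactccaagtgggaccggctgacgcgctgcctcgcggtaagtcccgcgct

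The *Ezh2* match begins 3 bases after the start site, the *Suz12* match at position -219 from it, and the *Phf19* match, which reads on the opposite strand, at position -208. RefSeq gave 13 windows for the 9 genes, and 3 of the 13 (23.1%) held one of these spellings, against 2.27% of 32851 mouse windows of the same length. The *Ezh1* window had none of these letters. CpG dinucleotides numbered 31 in the *Ezh2* window, 23 in that of *Ezh1*, 41 in that of *Suz12* and 38 in that of *Phf19*. Over the 13 windows the number ran from 2, in 1 of the *Mtf2* windows, to 41, and the median over all mouse windows was 7. Each spelling searched holds a CpG, and no windows matched for CpG number were compared. The difference in share therefore cannot be told apart from CpG richness. These are descriptions of letters in the reference. The *Ezh1* and *Ezh2* sequences stand beside opposite changes in reads, and *Suz12* and *Phf19*, which both carry a match, differed in their changes, as described next.

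The first comparison asked how the PRC2 genes differed between NPCs and ESCs over both crosses. Reads of 6 of the 9 genes were lower in NPCs (*Ezh2*, *Eed*, *Suz12*, *Jarid2*, *Aebp2*, *Mtf2*), 2 were higher (*Ezh1*, *Phf1*), and *Phf19* did not pass the test (edgeR quasi-likelihood test, Benjamini-Hochberg adjusted over all genes, threshold 0.05). The largest falls were those of *Eed* (5.34-fold), *Mtf2* (4.22-fold), *Suz12* (3.78-fold) and *Jarid2* (3.41-fold), and the rise of *Phf1* was 2.94-fold. Differences between the stages were widespread, with 69.4% of all genes tested called, 37.5% higher and 31.9% lower in NPCs. The 8 of 9 PRC2 genes called stand against that background. The median log2 fold change of the 9 genes was -0.78, and that of all genes tested 0.17. In bulk RNA, fewer cells of a type and less RNA per cell cannot be told apart.

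**Figure D1:**
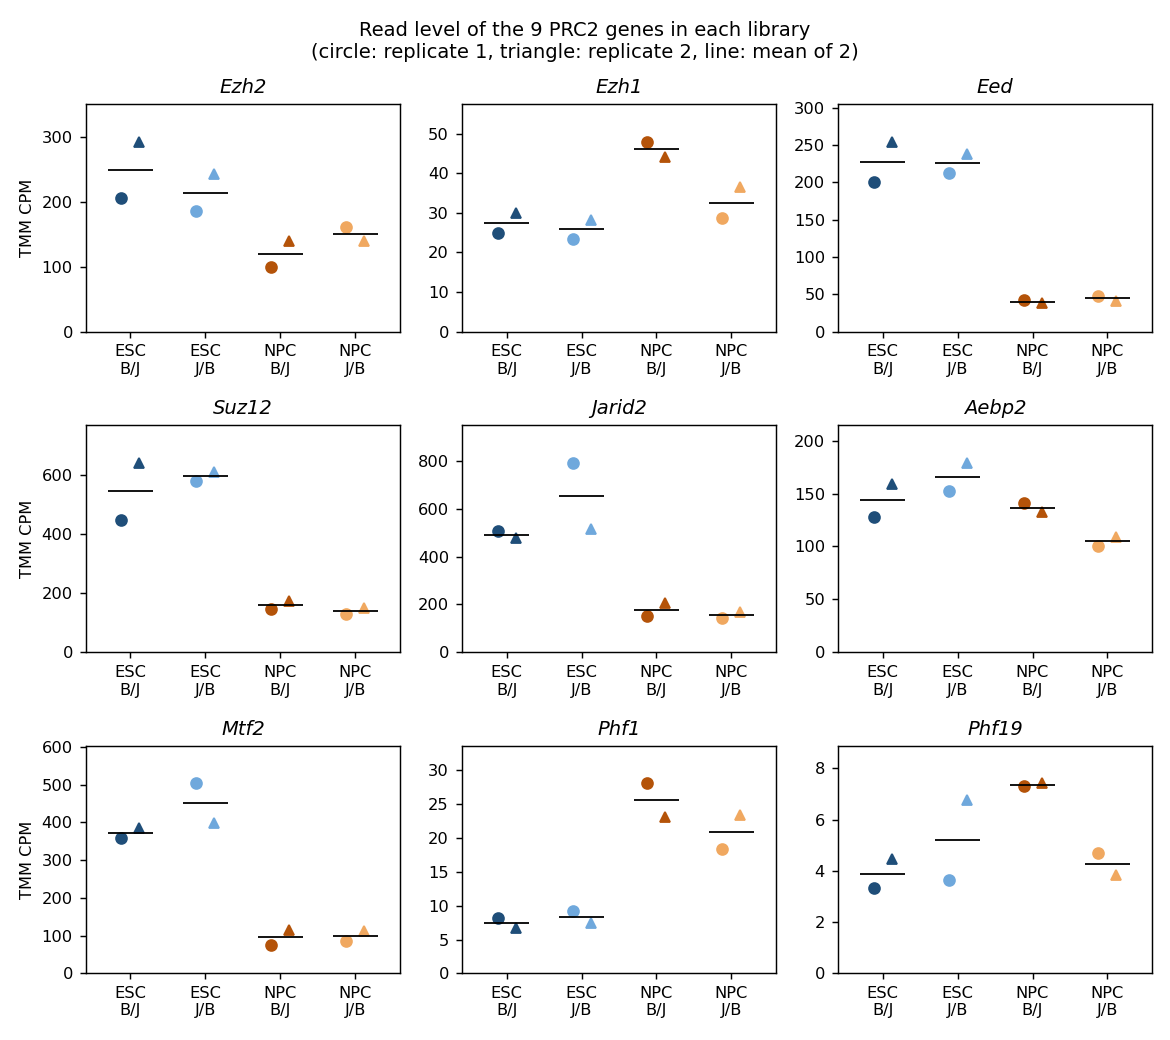
Read level (TMM CPM, linear axis from 0) of the 9 PRC2 genes in the 8 libraries, grouped by stage and cross, with circles for replicate 1, triangles for replicate 2 and a line at the mean of the 2. *Eed*, *Suz12*, *Jarid2* and *Mtf2* lie far lower in all 4 NPC libraries, *Phf1* lies higher, and the groups of *Ezh1*, *Aebp2* and *Phf19* overlap.

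Of the catalytic subunits, *Ezh2* (chromosome 6, 47507073 to 47572331 on GRCm39) was at 206 and 293 TMM CPM in the ESC B/J libraries, 186 and 242 in ESC J/B, 99.9 and 139 in NPC B/J and 162 and 139 in NPC J/B. All 4 NPC libraries were below the 4 ESC libraries, although the NPC J/B library at 162 came close to the ESC J/B library at 186. *Ezh2* fell by 0.78 on the log2 scale (SE 0.18, adjusted p = 0.00556, edgeR), a 1.72-fold difference. On library totals the stages overlapped and the change was -0.31 (adjusted p = 0.192, edgeR), and relative to *Gapdh*, *Tbp* and *Gusb*, the housekeeping genes of the study, it was -0.16 (adjusted p = 0.549, edgeR). Under TMM these references themselves changed, *Gapdh* by -1.43 (adjusted p = 1.42e-04, edgeR) and *Tbp* by -0.69 (adjusted p = 0.00408). *Gusb* did not pass (0.23). Exons of *Ezh2* share 94 bp with *Cul1* on the opposite strand, which had 206 TMM CPM in ESCs and 187 in NPCs. The part of its reads in *Ezh2* was not tested.

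Its paralog *Ezh1* (chromosome 11, 101081934 to 101117315) was at 24.8 and 30.0 TMM CPM in ESC B/J, 23.5 and 28.2 in ESC J/B, 48.0 and 44.2 in NPC B/J and 28.7 and 36.5 in NPC J/B. Both NPC B/J libraries stood above every other library, whereas 1 NPC J/B library lay within the ESC range, so the stages overlapped. *Ezh1* rose by 0.54 on the log2 scale (SE 0.16, adjusted p = 0.0167, edgeR), or 1.46-fold. The call was lost without ESC B/J replicate 1 (0.48, adjusted p = 0.0645, edgeR), ESC J/B replicate 1 (0.48, adjusted p = 0.0526) or NPC J/B replicate 2 (0.45, adjusted p = 0.0622). On library totals and relative to the housekeeping genes, all NPC libraries were above all ESC libraries. Exons of *Ezh1* share 814 bp with the neuronal gene *Cntnap1* on the opposite strand, and whether the counting used the strand is not stated. *Cntnap1* itself had 0.0989 TMM CPM in ESCs and 2.62 in NPCs, and the part of its reads in *Ezh1* was not tested.

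Reads of the core genes *Eed* and *Suz12* were far more reduced than those of *Ezh2*. *Eed* (chromosome 7, 89603862 to 89630217), whose product binds methylated H3K27 and stimulates the enzyme, had 200 and 254 TMM CPM in ESC B/J, 213 and 238 in ESC J/B, 41.9 and 38.4 in NPC B/J and 48.2 and 41.5 in NPC J/B. The libraries of each stage lay close together, with a wide gap between the stages. *Eed* fell by 2.42 on the log2 scale (SE 0.14, adjusted p = 1.54e-05, edgeR). *Suz12* (chromosome 11, 79883891 to 79925421), the scaffold on which the accessory proteins assemble, was at 450 and 642 TMM CPM in ESC B/J, 581 and 610 in ESC J/B, 148 and 175 in NPC B/J and 131 and 151 in NPC J/B. Its lowest ESC library was still well above its highest NPC library. *Suz12* fell by 1.92 (SE 0.16, adjusted p = 4.27e-05, edgeR).

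Of the partners of the JARID2 form, *Jarid2* (chromosome 13, 44882950 to 45075119), a Jumonji-family protein without demethylase activity that helps to recruit PRC2, had 506 and 476 TMM CPM in ESC B/J, 792 and 516 in ESC J/B, 152 and 205 in NPC B/J and 142 and 169 in NPC J/B. ESC J/B replicate 1 stood above the other ESC libraries, and every NPC library was below every ESC library. *Jarid2* fell by 1.77 on the log2 scale (SE 0.18, adjusted p = 1.06e-04, edgeR), and by 1.60 without that ESC J/B library (adjusted p = 1.95e-04, edgeR). Its exons share 1293 bp with *Dtnbp1* on the opposite strand, which had 9.89 TMM CPM in ESCs and 16.0 in NPCs.

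*Aebp2* (chromosome 6, 140546644 to 140713010), a zinc finger cofactor of PRC2, changed far less than *Jarid2*. It had 128 and 159 TMM CPM in ESC B/J, 152 and 179 in ESC J/B, 141 and 132 in NPC B/J and 101 and 109 in NPC J/B. The NPC B/J libraries lay inside the ESC range, and only the NPC J/B libraries were below it. *Aebp2* fell by 0.36 (SE 0.13, adjusted p = 0.0343, edgeR), a call that depended on scaling, since its change was 0.11 on library totals (adjusted p = 0.503) and 0.26 relative to the housekeeping genes (adjusted p = 0.203). The call was also lost without ESC B/J replicate 2 (-0.28, adjusted p = 0.133, edgeR), without ESC J/B replicate 2 (-0.29, adjusted p = 0.112) and without any 1 of the 4 NPC libraries (-0.39 to -0.35), and with no low-count filter (-0.34, adjusted p = 0.0690) or with number 1 alone (-0.22, adjusted p = 0.505).

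Of the 3 Polycomb-like genes, *Mtf2* fell, *Phf1* rose and *Phf19* was not called. *Mtf2* (chromosome 5, 108213540 to 108256877), the Polycomb-like protein best known from ESCs, where it binds CpG-rich DNA, had 358 and 385 TMM CPM in ESC B/J, 503 and 398 in ESC J/B, 74.7 and 115 in NPC B/J and 86.0 and 111 in NPC J/B. There was no overlap between the stages. *Mtf2* fell by 2.08 on the log2 scale (SE 0.19, adjusted p = 6.09e-05, edgeR). Its exons share 395 bp with *Tmed5* on the opposite strand, which had 38.8 TMM CPM in ESCs and 57.0 in NPCs, and the part of its reads in *Mtf2* was not tested.

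*Phf1* (chromosome 17, 27152002 to 27156892), whose Tudor domain reads H3K36me3, was at 8.16 and 6.71 TMM CPM in ESC B/J, 9.18 and 7.46 in ESC J/B, 28.1 and 23.1 in NPC B/J and 18.4 and 23.4 in NPC J/B. Every NPC library was above every ESC library. *Phf1* rose by 1.56 on the log2 scale (SE 0.20, adjusted p = 3.15e-04, edgeR). Its exons share 1397 bp with those of *Cuta* on the opposite strand, which had 41.9 TMM CPM in ESCs and 29.1 in NPCs, and the part of its reads in *Phf1* was not tested.

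*Phf19* (chromosome 2, 34783764 to 34805063), the least abundant of the 9, rested on 68 to 256 reads per library. It had 3.34 and 4.45 TMM CPM in ESC B/J, 3.63 and 6.78 in ESC J/B, 7.29 and 7.41 in NPC B/J and 4.71 and 3.84 in NPC J/B. NPC B/J was the highest group and the other 3 groups overlapped. The change of 0.32 (SE 0.31, adjusted p = 0.379, edgeR) did not pass, while relative to the housekeeping genes it was 0.92 (adjusted p = 0.0402).

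The 4 ESC and the 4 NPC libraries did not overlap for 6 of the 9 genes, of which 5 lay lower in NPCs (*Ezh2*, *Eed*, *Suz12*, *Jarid2* and *Mtf2*) and 1 lay higher (*Phf1*). Over all genes tested, 31.2% lay lower and 35.3% lay higher without overlap. The median of all genes moved with the scaling, from 0.17 under TMM to 0.65 on library totals and 0.80 relative to the housekeeping genes. Measured from that median, *Ezh2* stood at -0.96 under each of the 3 scalings, *Eed* at -2.59, -2.59 and -2.60, and *Aebp2* at -0.54 throughout. *Phf1* stood at 1.38, 1.39 and 1.39 above the median, and *Ezh1* at 0.37 throughout. Scaling shifts each gene and the median almost alike, so these values were bound to agree and are no check on the calls. The changes of *Eed*, *Suz12*, *Jarid2*, *Mtf2* and *Phf1* were called, in the same direction, in each of the 19 alternative analyses.

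**Figure D2:**
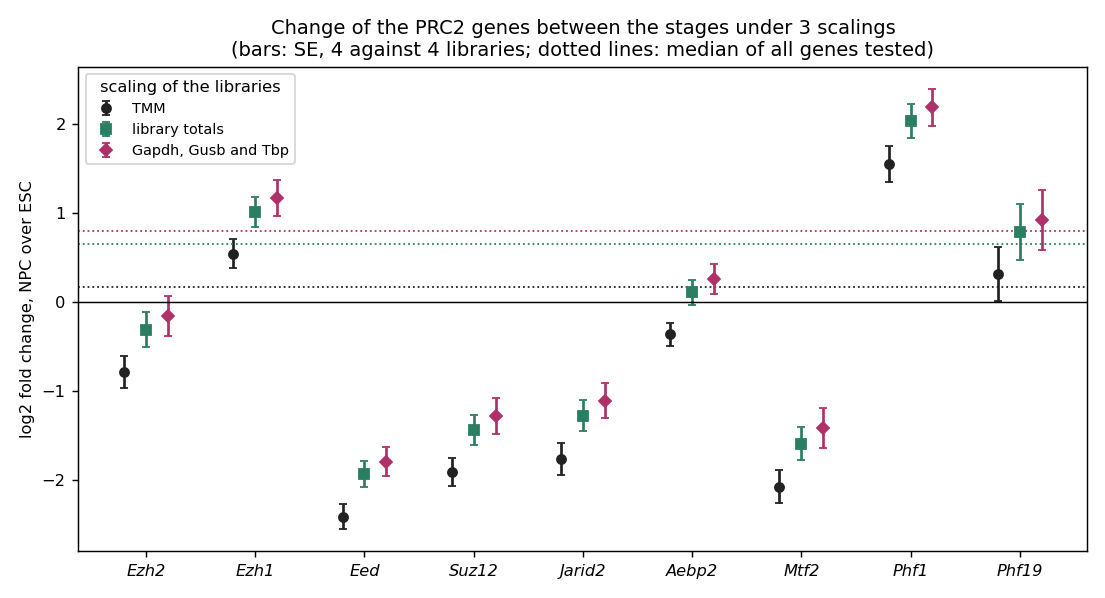
Log2 fold change of NPCs over ESCs (points, bars show SE, 4 against 4 libraries) for the 9 PRC2 genes with libraries scaled by TMM, by library totals or to *Gapdh*, *Gusb* and *Tbp*, and dotted lines at the median of all genes tested (0.17, 0.65 and 0.80). The order of the genes is kept while all move up together, so that *Aebp2* changes sign and *Ezh2* comes near 0.

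The stage change was then compared between the crosses. Within B/J, *Ezh1* and *Phf1* rose and *Ezh2*, *Eed*, *Suz12*, *Jarid2* and *Mtf2* fell, which is 2 genes higher and 5 lower, where 30.1% of all genes were called higher and 25.6% lower. Within J/B, *Phf1* rose and *Eed*, *Suz12*, *Jarid2*, *Aebp2* and *Mtf2* fell, which is 1 higher and 5 lower, where 29.1% were called higher and 25.3% lower. *Eed* changed by -2.50 in B/J and -2.33 in J/B, *Mtf2* by -1.97 and -2.19, and *Suz12* by -1.76 and -2.08. The differences between the crosses were 0.17 (SE 0.26), -0.22 (SE 0.36) and -0.32 (SE 0.30), each small beside the change itself. *Jarid2* changed by -1.46 in B/J and -2.07 in J/B, and *Phf1* by 1.78 and 1.33.

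Under TMM the catalytic pair and *Aebp2* were called in 1 cross only. *Ezh2* changed by -1.06 in B/J (SE 0.26, adjusted p = 0.0101, edgeR) and by -0.51 in J/B (SE 0.26, adjusted p = 0.127). *Ezh1* changed by 0.75 in B/J (SE 0.23, adjusted p = 0.0239, edgeR) and by 0.34 in J/B (SE 0.23, adjusted p = 0.236). With 1 J/B library left out, the J/B change ran from 0.15 to 0.49 for *Ezh1* and from -0.69 to -0.28 for *Ezh2*. The B/J call of *Ezh1* was lost without any 1 of the 4 B/J libraries (0.62 to 0.89), and that of *Ezh2* without ESC B/J replicate 2 (-0.79) or NPC B/J replicate 1 (-0.84). These calls depended on scaling. *Ezh1* was called in J/B too on library totals (0.82, adjusted p = 0.0223, edgeR) and relative to the housekeeping genes (1.09, adjusted p = 0.0152), and *Ezh2* was not called in B/J on either (-0.59, adjusted p = 0.107, and -0.54, adjusted p = 0.190). *Phf19* was not called in B/J under TMM (0.92, adjusted p = 0.107, edgeR) but was on library totals (1.38, adjusted p = 0.0329) and on housekeeping genes (1.42, adjusted p = 0.0391). *Aebp2* changed by -0.07 in B/J and by -0.66 in J/B (SE 0.18, adjusted p = 0.0177, edgeR), and the latter call was lost without ESC J/B replicate 2 (-0.51), NPC J/B replicate 1 (-0.62) or NPC J/B replicate 2 (-0.72), and on library totals (-0.17) or housekeeping genes (0.089).

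The difference between the crosses was itself tested as an interaction, and no PRC2 gene passed. Among all genes 0 of 16399 passed (0%), with 573 at an unadjusted p under 0.05 in edgeR, 11 called by DESeq2 and 0 by limma-voom. The interaction of *Ezh2* was 0.55 (SE 0.36), that of *Ezh1* -0.41 (SE 0.32), that of *Aebp2* -0.58 (SE 0.26, unadjusted p = 0.0538, edgeR) and that of *Phf19* -1.20 (SE 0.61). Over 17 alternatives these kept their sign but moved. *Ezh2* ran from 0.29 to 0.79, *Ezh1* from -0.61 to -0.17, *Aebp2* from -0.74 to -0.34 and *Phf19* from -1.58 to -0.66. A change called in B/J and not in J/B is thus not shown to differ between the crosses.

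**Figure D3:**
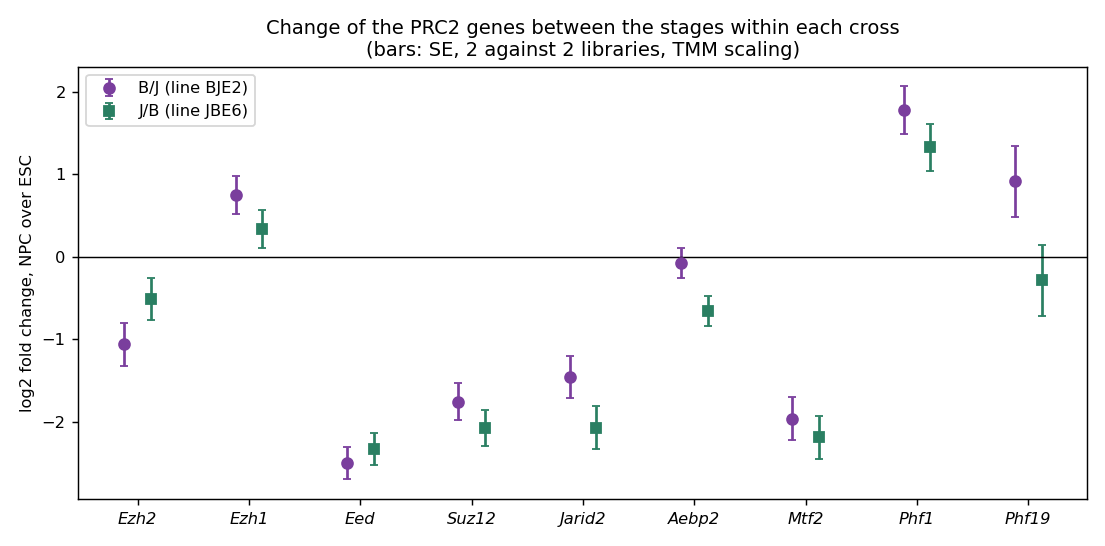
Log2 fold change of NPCs over ESCs (points, bars show SE, 2 against 2 libraries, TMM scaling) for the 9 PRC2 genes within B/J (circles) and within J/B (squares). *Eed*, *Suz12*, *Jarid2* and *Mtf2* lie below -1.4 in both crosses, and the symbols are farthest apart for *Phf19* (0.92 and -0.28).

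J/B and B/J were also compared within each stage. In ESCs, 0 genes of 16399 were called (0%), with 346 at an unadjusted p under 0.05 in edgeR, 10 called by DESeq2 and 0 by limma-voom. The J/B over B/J log2 differences of the PRC2 genes ran from -0.22 for *Ezh2* (SE 0.26) to 0.42 for *Phf19* (SE 0.44), with *Jarid2* at 0.41 (SE 0.25), which was 0.068 without ESC J/B replicate 1. In NPCs, 1 gene was called (0.0061%) and it was none of the 9, with 1050 at an unadjusted p under 0.05 in edgeR, 70 called by DESeq2 and 1 by limma-voom. No gene was called in edgeR with the replicate block, on library totals, on housekeeping genes or without any 1 of the 4 NPC libraries. There, *Phf19* was at -0.78 (SE 0.43), *Ezh1* at -0.50 (SE 0.23), *Aebp2* at -0.38 (SE 0.18) and *Ezh2* at 0.33 (SE 0.26), which was 0.098 without NPC B/J replicate 1, 0.57 when NPC B/J replicate 2 was left out and 0.20 without NPC J/B replicate 1. Without a term for replicate number, all 9 differences had an unadjusted p above 0.05 at both stages, that of *Ezh1* in NPCs being 0.0591 (edgeR, adjusted p = 0.770). With the replicate number as a block, *Ezh1* in NPCs was at -0.51 (SE 0.19, unadjusted p = 0.0331, adjusted p = 0.429, edgeR) and *Aebp2* at -0.38 (SE 0.16, unadjusted p = 0.0459, adjusted p = 0.453), and no PRC2 gene was called.

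Ratios between PRC2 genes within a library do not depend on how libraries are scaled, and gene length cancels in their change. Protein levels, the make-up of the complex and H3K27me3 were not examined here. The balance of reads from the genes of the catalytic subunits moved towards *Ezh1*. *Ezh1* reads per *Ezh2* read were 0.120 and 0.102 in ESC B/J, 0.126 and 0.116 in ESC J/B, 0.481 and 0.318 in NPC B/J and 0.178 and 0.262 in NPC J/B. Every NPC library was above every ESC library, and the NPC B/J libraries were the highest. The geometric mean went from 0.116 to 0.290, a 2.50-fold rise (1.32 on the log2 scale, SD 0.13 in ESCs and 0.60 in NPCs, n = 4, two-sided exact permutation p = 0.0286, the smallest that 4 against 4 libraries can give). The log2 change was 1.82 in B/J and 0.83 in J/B, a difference that was not tested. Divided by exon length, *Ezh2* still exceeded *Ezh1* in NPCs, by 4.36-fold against 10.9-fold in ESCs.

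NPC B/J replicate 1 had the highest *Ezh1* and the lowest *Ezh2* of the NPC libraries. This library also had the lowest summed level of neural precursor markers among them (759 TMM CPM, against 1451 to 1845 in the others). It had the lowest of neuronal markers (346, against 911 to 1818) and the highest of trophoblast markers (3481, against 1238 to 1858). Its fibroblast sum was the highest too (3485, against 2104 to 3123), also without *Fn1* (1888, against 772 to 1870). Its neural precursor sum was below those of the ESC libraries (812 to 1216) and its neuronal sum within theirs (326 to 467). Without *Sox2*, which ESCs also express, the neural precursor sum was 718 in this library, 1307 to 1645 in the other NPC libraries and 341 to 448 in ESCs. Without *Stmn2*, also high in ESCs, the neuronal sum was 318, against 841 to 1688 and 115 to 184. The part of these cell types in the ratio was not tested. Without this library the *Ezh1* to *Ezh2* change was 1.08 on the log2 scale.

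Reads of the core genes did not fall evenly. *Eed* reads per *Ezh2* read were 0.870 to 1.15 in ESCs and 0.276 to 0.419 in NPCs, a 3.10-fold lower mean. *Suz12* reads per *Ezh2* read were 2.18 to 3.13 in ESCs and 0.809 to 1.48 in NPCs, 2.19-fold lower. In both ratios the stages were apart, whereas *Eed* per *Suz12* read overlapped (0.366 to 0.446 and 0.219 to 0.369). The ratios to *Ezh2*, *Eed* to *Suz12*, and those of *Mtf2* and *Jarid2* to *Suz12* and to each other were chosen after their values had been seen, and no ratio other than *Ezh1* to *Ezh2* was tested.

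Reads of the accessory genes shifted against each other. *Phf1* reads per *Mtf2* read were 0.0174 to 0.0228 in ESCs and 0.200 to 0.376 in NPCs, and the mean was 12.6-fold higher in NPCs, with NPC B/J replicate 1 the highest. *Phf19* per *Mtf2* read went from 0.0107 to 0.0587, 5.47-fold higher, and *Phf19* per *Phf1* read from 0.559 to 0.243. *Jarid2* reads per *Aebp2* read were 2.88 to 5.21 in ESCs and 1.08 to 1.55 in NPCs, a 2.65-fold lower mean with almost the same log2 change in B/J (-1.41) and J/B (-1.40). The proportions among *Mtf2*, *Jarid2* and *Suz12* moved less. *Mtf2* per *Suz12* read averaged 0.721 in ESCs and 0.634 in NPCs, *Jarid2* per *Suz12* read 0.990 and 1.10, and *Jarid2* per *Mtf2* read 1.37 and 1.73, all with overlapping stages. The last of these changed by 0.33 on the log2 scale (SD 0.15 in ESCs and 0.18 in NPCs), 0.52 in B/J and 0.15 in J/B.

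**Figure D4:**
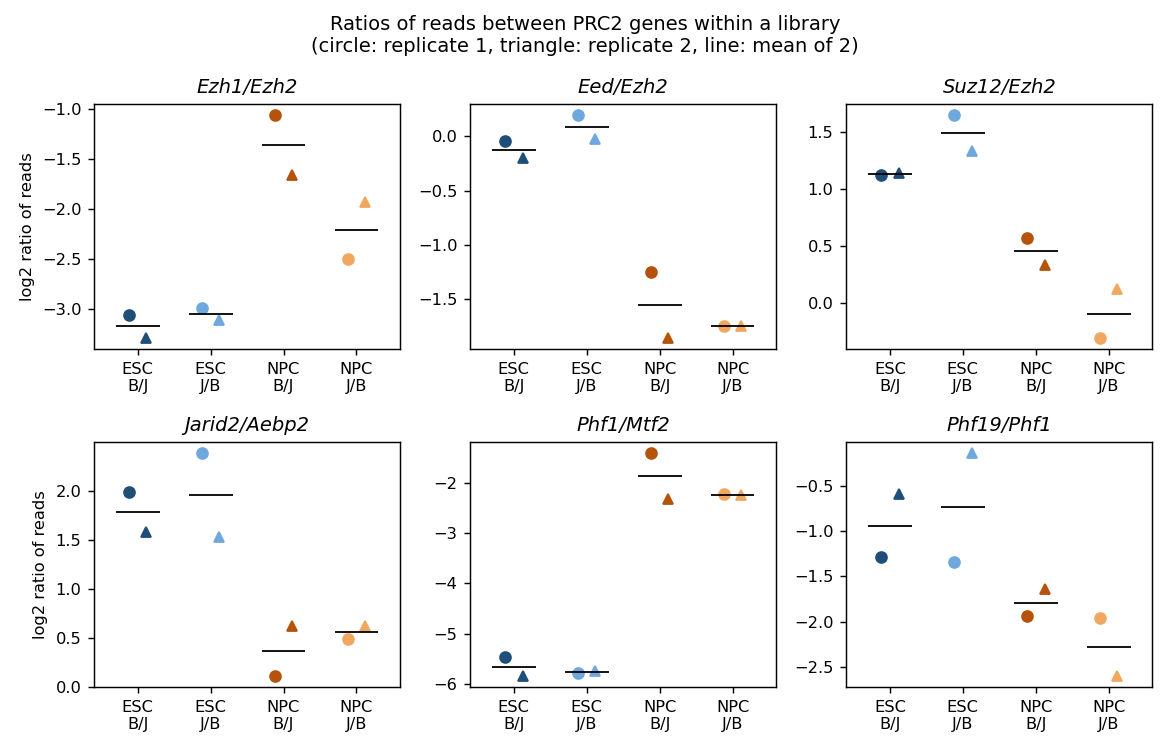
Log2 ratio of reads of one PRC2 gene to another in each library, by stage and cross (circles replicate 1, triangles replicate 2, lines the mean of the 2). The *Ezh1* to *Ezh2* and *Phf1* to *Mtf2* ratios are higher in all NPC libraries, and the ratios of *Eed* and *Suz12* to *Ezh2*, *Jarid2* to *Aebp2* and *Phf19* to *Phf1* are lower.

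Levels were compared between genes only per length, as TMM CPM per kb of the union of annotated exons (GENCODE vM39, GRCm39). In ESCs the order was *Suz12* (75.7 ± 11.2), *Mtf2* (59.9 ± 9.22), *Eed* (58.8 ± 6.33), *Jarid2* (53.2 ± 13.6), *Ezh2* (31.7 ± 6.42), *Aebp2* (9.41 ± 1.29), *Ezh1* (2.88 ± 0.32), *Phf1* (2.18 ± 0.29) and *Phf19* (0.845 ± 0.290; SD, n = 4). The libraries of the first 4 overlapped from each to the next, as did those of *Ezh1* and *Phf1*, and the other neighbours were apart. In NPCs the order was *Suz12* (20.05 ± 2.41), *Ezh2* (18.5 ± 3.52), *Jarid2* (15.5 ± 2.56), *Mtf2* (14.1 ± 2.87), *Eed* (11.0 ± 1.06), *Aebp2* (7.36 ± 1.15), *Phf1* (6.43 ± 1.09), *Ezh1* (4.26 ± 0.93) and *Phf19* (1.08 ± 0.34). There the first 5 overlapped in a chain, as did *Aebp2*, *Phf1* and *Ezh1*. *Ezh2* thus had rank 5 in ESCs and was in the overlapping top group in NPCs, and *Phf1* (6.43) and *Ezh1* (4.26) had overlapping libraries there. With the longest transcript as the length, *Ezh2* (72.5) stood above *Jarid2* (68.5) in ESCs, so its place outside the top group there depends on the length used. The order among the first 5 changed at both stages, and in NPCs *Ezh1* came before *Phf1*.

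**Figure D5:**
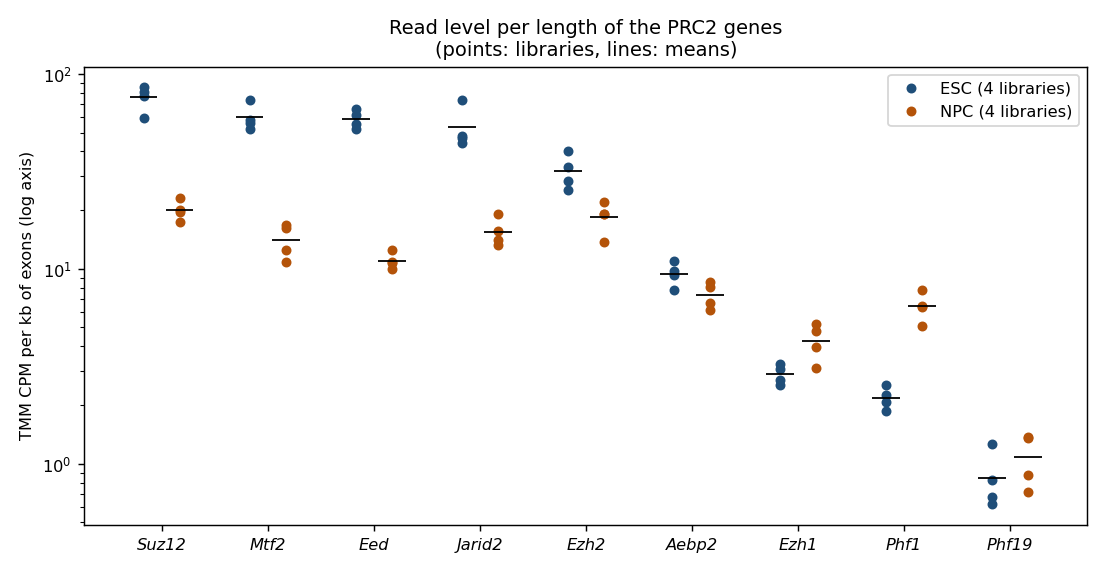
TMM CPM per kb of exons (log axis) of the 9 PRC2 genes in the 4 ESC and 4 NPC libraries, with lines at the means and genes ordered by their ESC level. The ESC means run from 75.7 for *Suz12* to 0.845 for *Phf19*, and the NPC means lie closer together, from 20.05 to 1.08.

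The patterns of the 9 genes over the 8 libraries were compared by the root mean square (RMS) difference of their centred log2 levels. The stage change is part of these levels, so genes with a like stage change come out close. The closest pairs were *Jarid2* and *Mtf2* (0.22), *Suz12* and *Mtf2* (0.23) and *Suz12* and *Jarid2* (0.26), while *Ezh1* and *Ezh2* were at 0.76. Among all genes tested, those nearest to *Ezh1* were *Golga5* (0.08), *Sos1* (0.09) and *Dguok* (0.11), and those nearest to *Ezh2* were *Cry1* (0.10), *Eif1ax* (0.11) and *Cdk8* (0.11). The nearest to *Jarid2* were *Zbtb44* (0.14), *Gm45871* (0.15) and *Fbxo30* (0.15), and to *Phf19* *Rlim* (0.20), *Tnfrsf10b* (0.21) and *Hexa* (0.23). The median difference from these 4 genes to all genes was 0.82 to 1.13.

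Other genes of the pathway were described by lists. The shares of all genes tested to set beside the counts are again 37.5% higher and 31.9% lower. Changes of list genes are given under TMM only. The median of all genes was 0.17 there, 0.65 on library totals and 0.80 relative to the housekeeping genes, so small falls may not hold under other scaling. Of 6 further PRC2 subunits and partners, 3 fell, 1 rose and 2 did not pass, with a median log2 fold change of -0.66. The 4 called of 6 are near the 69.4% called over all genes. *Epop*, a partner of the Polycomb-like form, went from 790 ± 114 to 108 ± 51.3 TMM CPM (-2.91) and *Rbbp4*, a histone chaperone of the core, from 610 ± 39.3 to 289 ± 23.8 (-1.08), whereas its paralog *Rbbp7* had 413 ± 50.04 and 498 ± 160 and did not pass. *Ezhip*, an inhibitor of PRC2, fell from 2.76 ± 2.30 to 0.122 ± 0.0746 TMM CPM, and it reached the low-count filter in the ESC libraries alone. *Lcorl* rose by 1.64 and its relative *Lcor* did not pass (-0.23). Of the H3K27 demethylase family, *Kdm6b* rose by 1.12 while *Kdm6a* fell by 0.72 and the Y-linked *Uty* by 0.52. Of the acetyltransferases that act on the same lysine, *Ep300* fell by 0.39 and *Crebbp* did not pass (0.15).

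H2AK119 ubiquitination is the mark of PRC1 that JARID2 and AEBP2 recognise. Of the genes of its ligases, *Ring1* rose by 1.33 and *Rnf2* did not pass (-0.41). Of the deubiquitinase that removes the mark, the gene of the enzyme, *Bap1*, fell by 0.64 and those of its cofactors, *Asxl1* and *Asxl2*, fell by 1.58 and 1.41. Of 4 H3K36 methyltransferases, whose mark impairs PRC2 and is read by the Polycomb-like proteins, *Nsd2* rose by 1.37 and *Nsd3* by 2.02, and *Nsd1* fell by 1.41 and *Setd2* by 0.64. Of 21 genes known as PRC2 targets in ESCs, which are developmental transcription factor genes and the cell cycle inhibitor gene *Cdkn2a*, 20 could be tested. Of these 16 rose, 2 fell and 2 (*Pax6* and *Cdkn2a*) did not pass. For 7 of the 20, all among those that rose, the low-count filter was reached in the NPC libraries alone, so that they could only be higher there, and the count is not read against the share over all genes. Of the other 13 genes 9 rose. *Gata4*, *Gata6*, *Sox17* and *Foxa2* of this list are also among the endoderm markers and *Cdx2* and *Hand1* among the trophoblast markers given above, and their part in the count was not tested. *Lhx5* had 3 reads in the 4 ESC libraries together and 24.1 ± 11.6 TMM CPM in NPCs, *Neurog2* 5 reads and 25.5 ± 15.3, and *Irx3* went from 0.791 ± 0.483 to 79.0 ± 18.3. *Olig2* fell by 2.33 and *Wt1* by 1.52. *Tbx5* was left out of the test because of its low counts.

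Proliferation genes were followed because *Ezh2* is known from dividing cells. All 15 fell in NPCs, with a median of -1.59, where 31.9% of all genes tested were called lower. Of these genes *Mcm2* (-2.20), *Mcm5* (-2.18) and *Mcm3* (-2.12), subunits of the replicative helicase, changed the most. Their summed level was 5364 to 6801 TMM CPM in the ESC libraries and 1709 to 2622 in the NPC libraries. Within NPCs, J/B replicate 1 had the highest sum (2622), the highest *Ezh2* (162) and the lowest *Ezh1* (28.7). B/J replicate 1 had the lowest sum (1709), the lowest *Ezh2* (99.9) and the highest *Ezh1* (48.0). Between the remaining NPC libraries this order was not kept. B/J replicate 2 had a sum of 2032, with *Ezh2* at 139.1 and *Ezh1* at 44.2, and J/B replicate 2 had 1811, 139.4 and 36.5. Within ESCs the 2 libraries with the highest sums (6801 and 6536) had the lowest *Ezh2* (206 and 186), and those with sums of 6068 and 5364 had 293 and 242. The part of proliferation in the PRC2 changes was not tested. Of 6 E2F genes, *E2f4* fell by 1.79, *E2f1* by 1.08, *E2f2* by 1.04 and *E2f3* by 0.66, *E2f6* rose by 0.51 and *E2f5* did not pass (0.57).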

How the data were processed

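RNA-seq of ESCs and day 12 NPCs of both crosses was deposited as counts. The authors mapped paired-end reads with TopHat2 to mm39 masked at strain-specific positions, with gene models from refGene, and kept properly paired reads of sufficient mapping quality. HTSeq, DESeq2 and edgeR are also listed in the submitters' processing notes, without versions or roles. Each file deposited by the authors lists unnormalized counts per gene, with both alleles together. Closing entries for reads without a gene were left out of the totals; reads on no feature were 5.76 to 10.9% of those on genes plus these entries, and ambiguous reads at most 0.554%. How the counting treated the strand is not stated.

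The 9 genes, the gene lists and the tests were chosen with earlier results of these data known. Counts were fitted in R 4.3.3 with edgeR 4.0.16 (TMM factors, filterByExpr with minimum count 10, 4 group means over all 8 libraries, robust quasi-likelihood test, common dispersion 0.113), with Benjamini-Hochberg adjustment over 16399 genes and a threshold of 0.05. The study's methods give no count test for these data. Alternatives were size factors by RLE, plain library totals, scaling to the housekeeping genes, DESeq2 1.42.0, limma-voom (limma 3.58.1), no filter, a filter at a mean of 1 CPM, non-robust dispersions, a replicate block, each library left out, and libraries with number 1 or 2 alone with additive terms for stage and cross. The *Ezh1* to *Ezh2* ratio was tested by exact permutation (SciPy 1.17.1). A library left alone in its group was assumed to vary like the others. Levels per length used GENCODE vM39 on GRCm39, the build of the counts, and promoters came from RefSeq (GRCm38.p6). The GENCODE exon lengths need not match those of the refGene models used by the authors. Plots were drawn with matplotlib 3.10.9.

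Named were the 9 genes, every gene of the 5 lists of PRC2 partners and of H3K27, H2AK119 and H3K36 enzymes, up to 3 of the largest called changes each way in the lists of PRC2 targets, proliferation and E2F genes, the 3 genes most like *Ezh1*, *Ezh2*, *Jarid2* and *Phf19* (log2 CPM with a prior count of 1), stage markers and housekeeping genes. Genes that share exons with a PRC2 gene were named after their values were seen. So were *E2f3*, *E2f5*, *Fn1*, *Sox2*, *Stmn2*, *Krt8*, *Krt18*, *Tpbpa* and *Pappa2*. The same holds for the PRC2 targets *Tbx5*, *Cdkn2a* and those that are also cell type markers. Replicates of a group differed by 64.5 to 90.7 times the variance expected from counting alone (chi-square over its degrees of freedom), and none was a duplicate. The fits were tested on simulated data. Intervals from counting error would understate the spread, so SD and SE between libraries are given. Allelic expression was not analysed here.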

Additional observations from a re-analysis of the deposited data

Results flagged for a closer look

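Of 40 groups of 4 libraries examined for a library far from the others, 2 stood out, and chance alone gives about 1 in 20. *Jarid2* in ESCs had 476, 506 and 516 TMM CPM in 3 libraries and 792 in ESC J/B replicate 1, a gap of 0.874 of the range (critical value 0.829). The same library had the highest *Mtf2* of the ESC libraries (503 TMM CPM), the highest sum of fibroblast markers without *Fn1* (75.4, against 8.20 to 15.9) and the highest sums of pluripotency markers (8209, against 5204 to 7703) and endoderm markers (18.5, against 6.25 to 12.5). Their part in the *Jarid2* level was not tested. Without it *Jarid2* changed by -1.60 between the stages in place of -1.77. The log2 ratio of *Phf1* to *Mtf2* reads in NPCs had a gap of 0.898 of the range, with NPC B/J replicate 1 at a ratio of 0.376 and the other NPC libraries at 0.200 to 0.214.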

How the results depend on the processing

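Of the 9 PRC2 genes, *Eed*, *Suz12*, *Jarid2*, *Mtf2* and *Phf1* kept their direction and call between the stages in all 19 alternatives (log2 changes of -2.63 to -1.80, -2.03 to -1.28, -2.10 to -1.11, -2.40 to -1.42 and 1.40 to 2.19). *Ezh2* was not called on library totals, on housekeeping genes or with number 1 alone (-0.61, adjusted p = 0.129, edgeR), nor *Ezh1* with number 1 alone (0.63, adjusted p = 0.133) or without 3 of the libraries. Scaling moved the share of stage calls that were higher from 54.0% (6145 higher, 5233 lower) to 70.1% on library totals (8016 and 3421) and 75.0% on housekeeping genes (8469 and 2824). Depth limits *Phf19* most, with as few as 68 reads.

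Reversed between the stages were *Aebp2* on library totals (0.11) and housekeeping genes (0.26) and *Phf19* with number 2 alone (-0.043). Within B/J, *Aebp2* reversed on library totals (0.39), housekeeping genes (0.43) and without ESC B/J replicate 2 (0.092, from -0.22 with 1 library left out). Within J/B, housekeeping scaling reversed *Ezh2* (0.22), *Aebp2* (0.089) and *Phf19* (0.42), and *Phf19* also on library totals (0.19) and without ESC J/B replicate 2 (0.26, from -0.66). The interaction reversed for *Eed* without ESC B/J replicate 2 (-0.0016, up to 0.34) and for *Mtf2* on housekeeping genes (0.017) and without NPC B/J replicate 2 (0.10, from -0.52). Between the crosses in ESCs, *Ezh1* (0.048 and 0.038 without ESC B/J replicate 2 or ESC J/B replicate 1, from -0.24), *Ezh2* (0.043 without ESC B/J replicate 2, from -0.46), *Suz12* (-0.11 without ESC B/J replicate 1, up to 0.40) and *Phf19* (-0.12 without ESC J/B replicate 2, up to 0.80) reversed, and *Eed* did on library totals (0.026), with a mean of at least 1 CPM (0.0019) and without ESC B/J replicate 2 (0.16) or ESC J/B replicate 1 (0.066, from -0.18). Between the crosses in NPCs, housekeeping scaling reversed *Suz12* (0.032) and *Jarid2* (0.023), *Jarid2* was 0.011 without NPC B/J replicate 2 (from -0.42), and *Mtf2* was -0.25 and -0.15 without NPC B/J replicate 1 or NPC J/B replicate 2 (up to 0.38). No reversed value was called (lowest and highest values are those with 1 library left out), and the cause was not tested except that scaling shifts all genes together.

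With 1 library left out, stage calls numbered 10225 to 11249, those within B/J 6157 to 6971 (9143 with all) and within J/B 5700 to 7752 (8935 with all), the lowest without NPC J/B replicate 2, and 0 genes were called in the interaction, between the crosses in ESCs or between the crosses in NPCs. DESeq2 called 11 genes in the interaction, 10 between the crosses in ESCs and 70 in NPCs, and without the low-count filter edgeR called 2 and 5. On library totals and on housekeeping genes the crosses differed in 0 genes in NPCs. With 1 library left out, the *Ezh1* to *Ezh2* change was 1.08 to 1.56 on the log2 scale (p = 0.0571 by exact permutation), and with number 1 or number 2 alone 1.24 and 1.40 (exact p = 0.333), each at the smallest p that design can give.

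With a replicate block, 12010 genes were called between the stages, and the calls of the 9 PRC2 genes there did not change. The crosses then differed in 0 genes in NPCs. For the *Ezh1* to *Ezh2* ratio, libraries of the same cross and number were paired across the stages instead. The change was 1.32 (exact permutation of the signs of the paired differences, p = 0.125, the smallest possible). Libraries with the same number deviated together within a stage (r across genes 0.48 in ESCs and 0.61 in NPCs) but hardly between stages (0.05 to 0.09). Each group had only 2 numbers and the labels tie them to no shared batch, so outside that paired permutation they were not taken as pairs. Within a stage this stays a hint from the data, with the blocked values of *Ezh1* and *Aebp2* given beside the comparison of the crosses.

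By the longest transcript, the ESC ranks became 4 for *Ezh2*, 2 for *Eed*, 5 for *Jarid2* and 3 for *Mtf2*, and the NPC ranks 7 for *Ezh1*, 1 for *Ezh2*, 3 for *Eed*, 2 for *Suz12*, 4 for *Jarid2*, 5 for *Mtf2* and 8 for *Phf1*. The summed core level (*Eed*, *Suz12*, *Ezh1*, *Ezh2*) changed by -1.51 on the log2 scale, by -1.03 on library totals and by -0.88 on housekeeping genes.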
